A study of Mus musculus with 4 samples.

Results

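The genes described here are 8 that catecholamine neurons use to make, store, recapture and break down their transmitters: Th, Ddc, Dbh, Slc6a2, Slc18a2, Gch1, Phox2a and Maoa. They were chosen by gene symbol, and every probe that is not a control and carries one of these symbols was used. This gave 12 probes for 8 of the 24813 genes that could be named on the array. Th, Ddc, Dbh and Slc6a2 had 2 probes each and the other 4 genes 1 each.

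The samples were brainstem/cerebellum of transgenic mice, brainstem/cerebellum of wild-type mice, spinal cord of transgenic mice and spinal cord of wild-type mice, all aged 24 weeks. The submitters call the transgenic animals MSA Tg mice, after multiple system atrophy, a disease of parkinsonism, ataxia and autonomic failure with protein deposits in oligodendrocytes. All animals had the same mixed background of C57BL/6, 129 and C3H, and the labels name neither the transgene nor its promoter beyond the prefix PLP in the sample titles. Each group was 1 Agilent array in 1 colour, and it is not stated if this was 1 animal or pooled tissue. No difference below therefore has a replicate check, no test was run, and every value describes these 4 arrays.

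Catecholamines are made in sequence from tyrosine. Tyrosine hydroxylase, which needs the cofactor tetrahydrobiopterin, makes L-DOPA, the aromatic amino acid decarboxylase makes dopamine, and dopamine β-hydroxylase turns dopamine into noradrenaline inside vesicles. The noradrenaline neurons of the brain have their cell bodies in the locus coeruleus and other groups of the pons and medulla and send axons down the spinal cord, so transcripts of their marker genes are found mainly in the brainstem.

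On the arrays, brainstem/cerebellum carried clear signals of all 8 genes, and none of them differed by 2-fold between genotypes there. In spinal cord the genes split: Gch1, Phox2a and Ddc were past 2-fold upwards in transgenic mice, Slc18a2 and Dbh past 2-fold downwards, and Th and Maoa lay between, while Slc6a2 was at background. A level is the log2 of the background-subtracted signal minus the log2 of the 75th percentile of the array, and a difference is a difference of 2 such levels. Signals are given before this scaling, and the 75th percentile was 463 in transgenic and 445 in wild-type brainstem/cerebellum and 414 in transgenic and 686 in wild-type spinal cord, so raw spinal cord signals are not directly comparable between genotypes. In bulk tissue, fewer cells of a type and less RNA per cell cannot be told apart.

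Where a gene has 2 probes, the brighter one stands for it and the other is reported beside it. For Th, Dbh and Ddc the dimmer probe gave larger brainstem/cerebellum differences than the brighter one, and for Dbh it changes what can be said of spinal cord, so these 3 probes are shown in lower case as the files give them, 5′ to 3′.
Th, A_66_P102005: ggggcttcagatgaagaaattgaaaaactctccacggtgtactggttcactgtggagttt
Dbh, A_51_P444543: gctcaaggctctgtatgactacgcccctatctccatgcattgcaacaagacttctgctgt
Ddc, A_52_P63905: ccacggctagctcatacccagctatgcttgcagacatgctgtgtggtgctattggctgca
The Th probe covers mm9 chr7:150080370-150080581 on the minus strand. This is 212 bases for a probe of 60, so the probe joins sequence from separate blocks of the genome. The Dbh probe lies at chr2:27037081-27037140 on the plus strand and the Ddc probe at chr11:11776262-11776321 on the minus strand. All 3 are listed for RefSeq transcripts of their genes.

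Th transcription is known to respond to cAMP, and Phox2a is a homeodomain factor that acts on Dbh, so the 300 bases around their start sites were searched on both strands for the cAMP response element TGACGTCA and for the homeodomain-type letters AATTAG. These motifs do not overlap each other. RefSeq promoters of build GRCm38.p6 (250 bases before to 50 after the start) were present for 7 of the 8 genes, with 2 entries for Ddc. The 3 that held a match are printed with the matches in capitals.
Th, chr7:142899946-142900245, minus strand: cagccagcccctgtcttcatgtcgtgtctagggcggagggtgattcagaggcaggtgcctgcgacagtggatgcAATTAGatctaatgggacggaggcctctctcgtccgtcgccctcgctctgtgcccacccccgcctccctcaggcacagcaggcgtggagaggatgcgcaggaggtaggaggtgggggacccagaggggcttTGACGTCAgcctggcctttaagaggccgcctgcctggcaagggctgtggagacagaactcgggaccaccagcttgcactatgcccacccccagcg
Dbh, chr2:27165257-27165556, plus strand: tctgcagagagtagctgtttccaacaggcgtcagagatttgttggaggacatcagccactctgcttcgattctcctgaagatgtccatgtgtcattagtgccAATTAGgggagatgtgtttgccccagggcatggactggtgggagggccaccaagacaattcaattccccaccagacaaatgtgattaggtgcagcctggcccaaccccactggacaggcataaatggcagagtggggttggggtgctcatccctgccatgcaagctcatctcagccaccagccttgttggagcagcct
Slc18a2, chr19:59260628-59260927, plus strand: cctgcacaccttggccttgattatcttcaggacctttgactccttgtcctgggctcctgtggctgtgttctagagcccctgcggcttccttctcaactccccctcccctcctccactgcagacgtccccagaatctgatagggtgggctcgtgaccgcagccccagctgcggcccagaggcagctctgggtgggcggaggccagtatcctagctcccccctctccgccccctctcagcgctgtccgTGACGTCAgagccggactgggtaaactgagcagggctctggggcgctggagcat
The cAMP response element began at position -45 of Th and at position -4 of Slc18a2, counted from the start site, and 1.79% of all 32851 promoters of this length hold it. AATTAG began at position -176 of Th and -148 of Dbh, and 8.21% of all promoters hold it. The promoters of Gch1, Phox2a, Maoa and Ddc held neither string of letters. These are descriptions of the windows only.

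**Figure D1:**
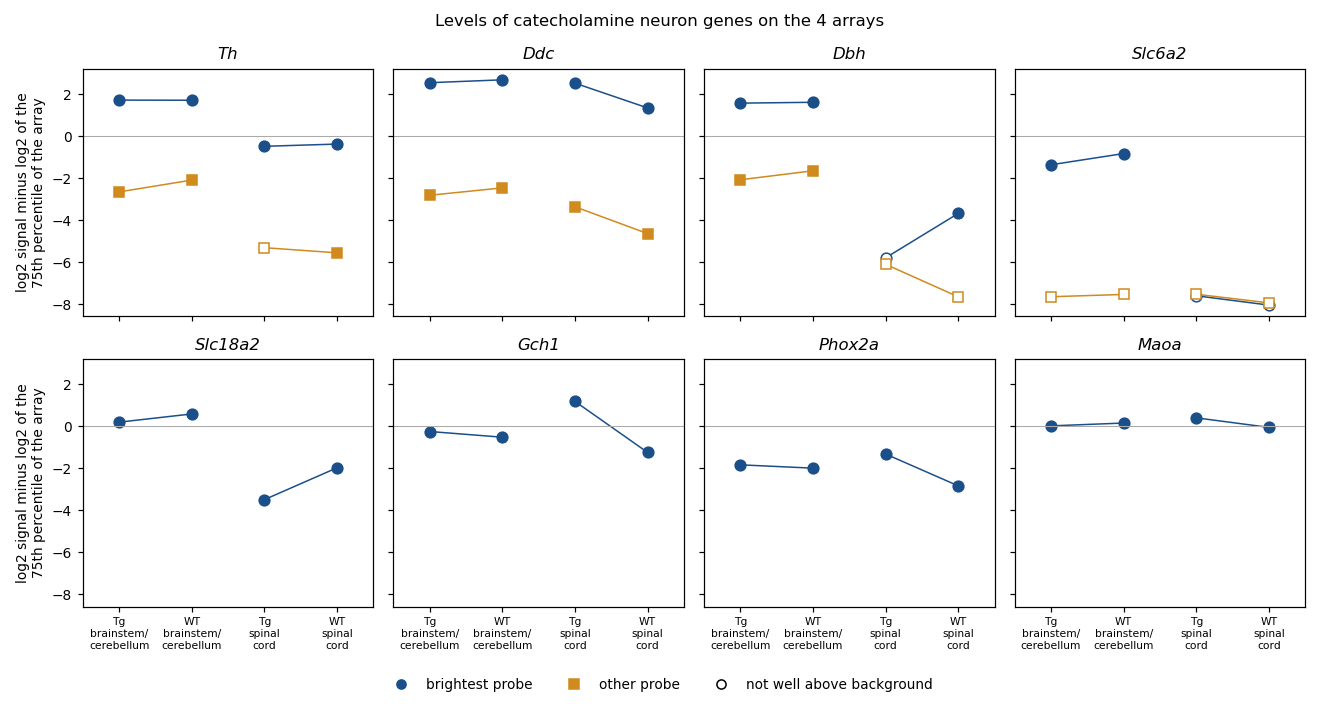
Level of each probe of the 8 genes (log2 signal minus log2 of the 75th percentile of the array, y axis) on the 4 arrays (x axis); circles are the probe that stands for the gene, squares the other probe, open symbols are not well above background, and lines join the 2 genotypes of a tissue. The brainstem/cerebellum pairs lie close together, while in spinal cord Gch1 stands at 1.19 in transgenic and -1.24 in wild-type mice and Slc18a2 at -3.49 in transgenic and -1.97 in wild-type mice.

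The arrays behind these values were similar in detection and saturation, but not in brightness. Between 59.2% and 64.0% of spots were well above background and none was saturated. The wild-type spinal cord array lay on another slide than the other 3, so for spinal cord the slide cannot be told apart from the genotype, while the brainstem/cerebellum comparison lies within 1 slide. That array also had the highest 75th percentile, 686 beside 414 to 463. Against the 75th percentile, the spike-in probes had a median genotype difference of 0.42 in spinal cord (-0.17 to 0.66) and of -0.06 in brainstem/cerebellum. Repeated spots within an array, spike-in control spots included, gave an SD for the difference of 2 spots of 0.10 to 0.14 at levels above -2.5. It was 0.30 between -3.5 and -2.5 and 0.50 below, and it covers technical error within an array only. The 0.30 rests on 5 pairs of a probe and an array and the 0.50 on 11, so both are rough. The tissue markers followed the labels: the cerebellar genes Pcp2, Gabra6, Cbln1, Car8 and Zic1 were 5 of 5 at least 2-fold lower in spinal cord in both genotypes, and 5 of 5 spinal Hox genes were higher. Between genotypes the cerebellar list had a median of 0.03 in brainstem/cerebellum. The noradrenaline neuron markers Th, Dbh, Slc6a2 and Phox2a were all detected in brainstem/cerebellum of both genotypes. Of 4 markers of midbrain dopamine neurons, 3 lay above 0 between genotypes in brainstem/cerebellum and 1 below, with a median of 0.12. These signs say little. Th stood at 0.01, less than its technical SD of 0.10, and at -0.56 at its other probe. Pitx3 and Slc6a3 were bounds near background, Pitx3 at 0.22. Slc6a3, the dopamine transporter gene, gave 8.76 in transgenic mice, not well above background, and 22.5 in wild-type mice. Pitx3 gave 14.1 in transgenic and 6.51 in wild-type mice, not well above background there, and Nr4a2 stood at 0.65.

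In brainstem/cerebellum the question was how the genotypes differ in these genes. Past 2-fold, 0 of the 8 genes were higher and 0 lower in transgenic mice. Among the 17113 named genes detected in either genotype, 3.68% were higher and 0.567% lower, 4.25% in all, so few calls among 8 genes would be seen at the rate of all genes. Of these calls 86.7% were higher at the scaling used, against 73.0% with median scaling and 77.6% with quantile normalization. The median difference was -0.09 for the 8 genes and -0.06 for all genes.

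Th, which encodes the rate-limiting enzyme, gave a signal of 1514 in transgenic and 1450 in wild-type mice, a difference of 0.01. Its other probe, printed above, gave 73.1 in transgenic and 104 in wild-type mice, a difference of -0.56 with a technical SD of 0.30. The 2 probes thus differ in what they show, and their mean stood at -0.28. With median scaling the brighter probe alone stood at -0.18.

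Dbh, whose enzyme makes noradrenaline, showed the same arrangement. The brighter probe gave 1369 in transgenic and 1355 in wild-type mice, a difference of -0.04. Over 7 ways of processing, the mean of both probes among them, the Dbh value lay between -0.23 and 0.03. The dimmer probe gave 109 in transgenic and 141 in wild-type mice, a difference of -0.43 with a technical SD of 0.14.

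Slc6a2 encodes the noradrenaline transporter, which takes the transmitter back into the neuron. Its signal was 179 in transgenic and 250 in wild-type mice, a difference of -0.53, or 1.45-fold lower. Among the probes that stand for the 8 genes this was the value furthest from 0 in brainstem/cerebellum, and 2.82% of all genes measured on both arrays were as far below 0 or further. The second Slc6a2 probe, listed for another transcript, was not well above background on any of the 4 arrays and gives no value.

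Slc18a2 encodes the vesicular transporter that loads dopamine, noradrenaline and serotonin into vesicles. It gave 532 in transgenic and 671 in wild-type mice, a difference of -0.39 with a technical SD of 0.10. Over 7 ways of processing it lay between -0.58 and -0.34, and Slc6a2 between -0.72 and -0.46. Both were negative under all 7, but the 7 ways are not independent. For both genes the mean of probes repeats the main value, and the authors' values nearly repeat quantile normalization.

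The other 4 genes were Ddc, Maoa, Gch1 and Phox2a. Ddc, the decarboxylase that serotonin neurons also use, gave 2689 in transgenic and 2845 in wild-type mice, a difference of -0.14, and -0.35 at its dimmer probe. Maoa, a mitochondrial enzyme that breaks down noradrenaline and serotonin, gave 471 in transgenic and 497 in wild-type mice, a difference of -0.13. Gch1, whose enzyme takes the first step towards tetrahydrobiopterin, gave 391 in transgenic and 312 in wild-type mice, a difference of 0.27. Phox2a, a homeodomain transcription factor needed to form noradrenaline neurons, gave 130 in transgenic and 112 in wild-type mice, a difference of 0.16 that turned to -0.03 with median scaling.

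**Figure D2:**
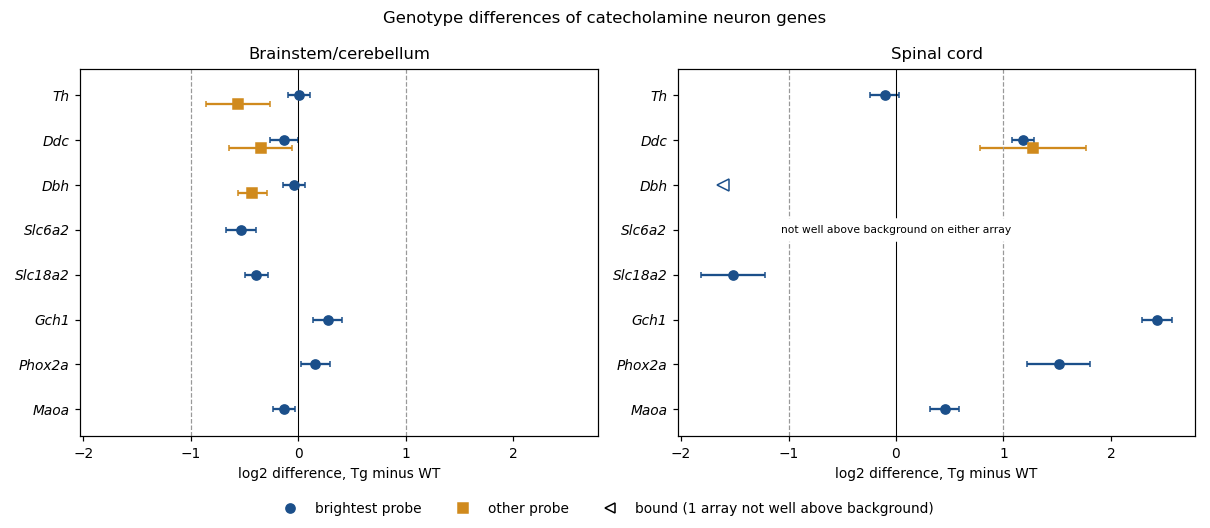
Log2 difference, transgenic minus wild type, of each gene in brainstem/cerebellum (left) and spinal cord (right); bars are ± 1 technical SD of 2 spots, open triangles are bounds and dashed lines mark 2-fold. All brainstem/cerebellum values lie within 2-fold, the dimmer probes of Th and Dbh lie at -0.56 and -0.43, and in spinal cord Gch1 reaches 2.43.

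In spinal cord 7 of the 8 genes were detected in one genotype or both. Past 2-fold, 3 of the 7 were higher in transgenic mice (Gch1, Phox2a and Ddc) and 2 lower (Slc18a2 and Dbh). Over all 17762 named genes measured there, 9.68% were higher and 6.76% lower, 16.4% in all. Of these calls 58.9% were higher, against 29.0% when the arrays were scaled on the spike-in control probes. The median difference of the 7 genes was 0.45, beside -0.05 for all genes, and their values ran from -1.61 to 2.43.

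Gch1 differed most. Its signal was 944 in transgenic and 291 in wild-type spinal cord, a difference of 2.43, or 5.38-fold higher. The technical SD is 0.14, and 1.76% of all genes measured on both arrays were as far above 0 or further. The transgenic spinal cord level was the highest of the 4 arrays and the wild-type spinal cord level the lowest, with both brainstem/cerebellum levels between them. Gch1 remained at 2.07 or above under 7 ways of processing, which are not independent. For this gene the mean of probes repeats the main value, and the authors' values nearly repeat quantile normalization.

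Phox2a gave 166 in transgenic and 96.3 in wild-type spinal cord, a difference of 1.51 with a technical SD of 0.30, or 2.86-fold higher. It has a single probe here, and with normexp background correction the difference was 0.99, under 2-fold.

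Ddc gave 2368 in transgenic and 1733 in wild-type spinal cord, a difference of 1.18, or 2.26-fold higher. The dimmer probe gave 40.0 in transgenic and 27.4 in wild-type mice, a difference of 1.27 with a technical SD of 0.50, so both probes gave a higher transgenic level of similar size. With spike-in scaling the brighter probe stood at 0.82, under 2-fold.

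Slc18a2 went the other way. It gave 36.9 in transgenic and 174 in wild-type spinal cord, a difference of -1.51 with a technical SD of 0.30, or 2.86-fold lower. Of the genes measured on both arrays, 1.94% were as far below 0 or further. With normexp background correction the difference was -0.82, under 2-fold.

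In spinal cord Dbh was above background in wild-type mice alone, and at the brighter probe only. Its signal was 7.43 in transgenic, not well above background, and 53.2 in wild-type mice, which makes the transgenic level at least 3.06-fold lower, or a bounded difference of -1.61. The probe printed above read 6.0 in transgenic and 3.40 in wild-type spinal cord, not well above background on either, so the Dbh call rests on 1 probe. With normexp background correction the bound was -0.57.

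Th and Maoa stayed within 2-fold in spinal cord. Th gave 295 in transgenic and 525 in wild-type mice, which after scaling is a difference of -0.11, less than its technical SD of 0.14, and -0.46 with spike-in scaling. Its dimmer probe was at 10.4 on the transgenic array, not well above background, and at 14.5 on the wild-type array, with no fold to give. Maoa gave 549 in transgenic and 663 in wild-type mice, a difference of 0.45, and 0.10 with spike-in scaling. Slc6a2 was not well above background on either spinal cord array, with signals of 2.12 in transgenic and 2.58 in wild-type mice.

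**Figure D3:**
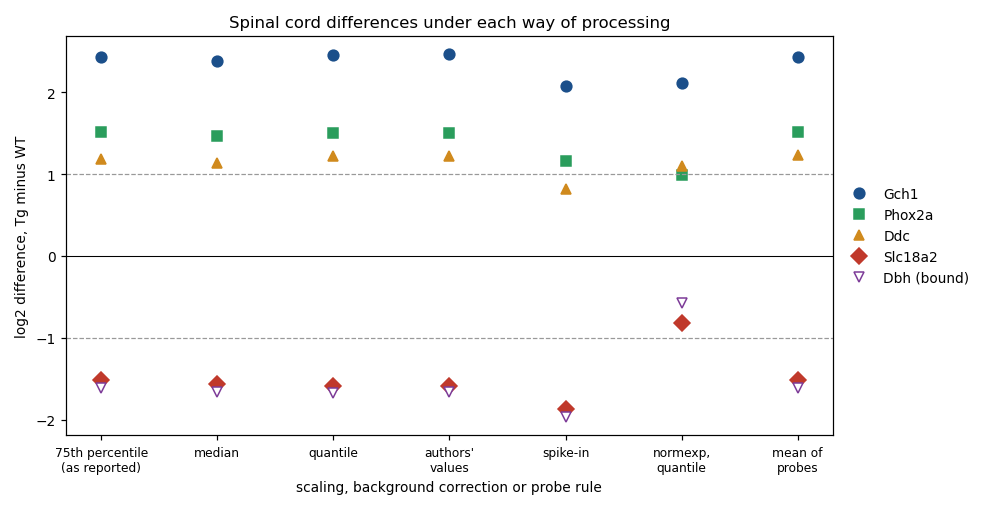
Log2 difference, transgenic minus wild type, in spinal cord of the 5 genes past 2-fold (y axis) under 7 ways of processing the arrays (x axis); the Dbh values are bounds and dashed lines mark 2-fold. Gch1 lies above 2 in every column, Ddc drops to 0.82 with spike-in scaling, and Phox2a, Slc18a2 and Dbh fall within 2-fold with normexp background correction.

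For the 6 genes above background on all 4 arrays, the genotype differences of the tissues were set against each other. The spinal cord difference exceeded the brainstem/cerebellum one by 2.16 for Gch1, 1.36 for Phox2a and 1.32 for Ddc, and by 0.59 for Maoa. It was below it by -1.12 for Slc18a2 and by -0.11 for Th. These are values of 4 arrays on 2 slides and have no test.

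Several cell type lists moved in spinal cord beside these genes, and their part in the values was not tested. Of 7 microglia and macrophage genes, all above background on every array, 5 were past 2-fold higher in transgenic spinal cord and 0 lower, with a median of 1.86. Their summed level was 158 times the 75th percentile in transgenic and 71.1 times in wild-type mice. Adgre1 stood at 3.84 and Cd68 at 3.73, while the 2 members below 0, named for their sign after the values were seen, were Itgam at -0.28 and Ptprc at -0.85. Other probes differed in size or sign: those of Ptprc gave 1.97 to 2.94, that of Itgam 0.21, that of Adgre1 1.04, and that of Csf1r 0.25 where the probe that stands for the gene gave 1.52 (Csf1r was likewise named after its values were seen). For brainstem/cerebellum 3 of the 7 were higher, the median was 0.85, and the summed level was 60.5 times in transgenic and 41.9 times in wild-type mice. Of 5 genes of alternatively activated macrophages 3 were higher in spinal cord, with a median of 2.34 and a summed level of 14.6 times the 75th percentile in transgenic and 0.97 times in wild-type mice. Of 5 genes each, astrocytes had 1 higher and 1 lower there, oligodendrocytes 0 and 0, and endothelium 0 and 1. Both astrocyte calls depended on the probe. The lower gene, Gja1, read -1.81 in spinal cord on the probe used, against a range of -0.43 to 1.03 on the rest. That probe read 1.97 in brainstem/cerebellum, transgenic minus wild type. The higher gene, Gfap, reached 1.08 in spinal cord, but only 0.40 on its second probe, under 2-fold.

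Of 7 genes common to all neurons, all 7 lay below 0 in spinal cord at the probe that stands for the gene. Their median was -0.41, and 0 passed 2-fold. Snap25 stood at -0.70, Rbfox3 at -0.61 and Map2 at -0.58, and the summed level was 188 times the 75th percentile in transgenic and 258 times in wild-type mice. Other probes differed in size or sign. Those of Snap25 gave -1.67 to -0.28, Rbfox3 -0.72 to -0.69, Map2 -0.80 to -0.01 and Syt1 -0.25 to 0.26. The other Stmn2 probe gave 0.66 where the probe that stands for the gene gave -0.21. Syt1 and Stmn2 were named after their values were seen. Of 6 genes listed for peripheral neurons, Scn10a, Trpv1 and Chrna3 were not well above background on any array. In spinal cord 3 were measured, 1 of them past 2-fold higher and 0 lower. Prph stood at -0.09 there and was above background in brainstem/cerebellum too. Whether ganglia were attached was not tested. The higher one was the actin-binding gene Avil at 1.84, or 3.58-fold.

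The other genes of the catecholamine pathway showed few differences past 2-fold. The cofactor genes Pts, Spr, Qdpr, Pcbd1 and Gchfr, which make or recycle tetrahydrobiopterin or regulate the Gch1 enzyme, had 0 of 5 past 2-fold in either direction in both tissues. Their median was -0.17 in brainstem/cerebellum and -0.33 in spinal cord. Gchfr, which encodes the feedback regulator of the Gch1 enzyme, stood at -0.71 in spinal cord, where Gch1 itself was at 2.43, and Qdpr at -0.52. The other enzymes Pnmt, Maob and Aldh2 had 0 of 3 past 2-fold in both tissues. Maob, which breaks down amines as Maoa does, stood at -0.71 in spinal cord.

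Of the other amine transporters, 3 of 4 were measured in each tissue. In brainstem/cerebellum 1 was at least 2-fold lower, the dopamine transporter gene Slc6a3 at a bounded difference of -1.11, and for spinal cord 0 were, with Slc29a4, a low-affinity monoamine transporter gene, at -0.34. Slc18a1, the vesicular transporter gene of endocrine cells, has 5 probes that disagree. Its brightest gave -0.82 and the others up to 3.25 in spinal cord.

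Among 13 transcription factor genes of noradrenaline and dopamine neurons, 9 were measured in each tissue. In brainstem/cerebellum 1 was higher, En1 as a bound of 1.22, and 1 lower, Gata3 at -1.16, and the median was -0.17. Insm1 stood at -0.83 and Nr4a2, a nuclear receptor gene of dopamine neurons, at 0.65. In spinal cord 1 was higher, En1 as a bound of 1.38, and 0 lower, with a median of -0.20. En1 was above background on both transgenic arrays and on neither wild-type array, at signals of 28.0 in transgenic and 2.40 in wild-type brainstem/cerebellum and of 19.7 in transgenic and 3.14 in wild-type spinal cord.

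The receptors for these transmitters stood mostly within 2-fold. Of 8 adrenergic receptor genes, all measured, 0 passed 2-fold in brainstem/cerebellum, with a median of -0.22. In spinal cord 1 of 8 was lower, Adra2b at -1.19, and the median was -0.15. Adra1b and Adra2c followed, both at -0.97, and Adra1a was at 0.36. Of 5 dopamine receptor genes 3 were measured in brainstem/cerebellum, where Drd4 stood at 1.1, Drd1 at -0.76 and Drd5 at -0.59. Drd4 was thus past 2-fold, at dim signals of 45.0 in transgenic and 20.3 in wild-type mice. At the levels of Drd4 and Drd1 the technical SD is 0.50. In spinal cord 0 of 4 measured passed 2-fold, with bounds from signals near background among them. The locus coeruleus list of Gal, Npy, Cartpt, Hcrtr1 and Dlk1 had 0 of 5 past 2-fold in both tissues, with medians of -0.02 and -0.24, and the orexin receptor gene Hcrtr1 was its lowest member at -0.41 in brainstem/cerebellum.

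Serotonin neurons lie near the noradrenaline neurons and also use Ddc, Slc18a2 and Gch1. Of their 3 marker genes 2 were past 2-fold lower in transgenic brainstem/cerebellum, Slc6a4 at -1.35 (-0.58 at its other probe) and Tph2 at -1.01. Tph2 lay just past the 2-fold line, and Fev stood at -0.33. These values were not recomputed under the other ways of processing. The noradrenaline neuron markers Th, Dbh, Slc6a2 and Phox2a had 0 of 4 past 2-fold in brainstem/cerebellum, with a median of -0.02. Over all 17113 named genes there, 3.68% were higher and 0.567% lower, so 0 of 4 is near the rate of all genes. Among them Slc6a2 stood at -0.53 and Phox2a at 0.16, and the dimmer probes of Th and Dbh gave -0.56 and -0.43. A difference between the 2 kinds of neuron was not tested. Slc18a2, which both kinds of neuron need, lay at -0.39.

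**Figure D4:**
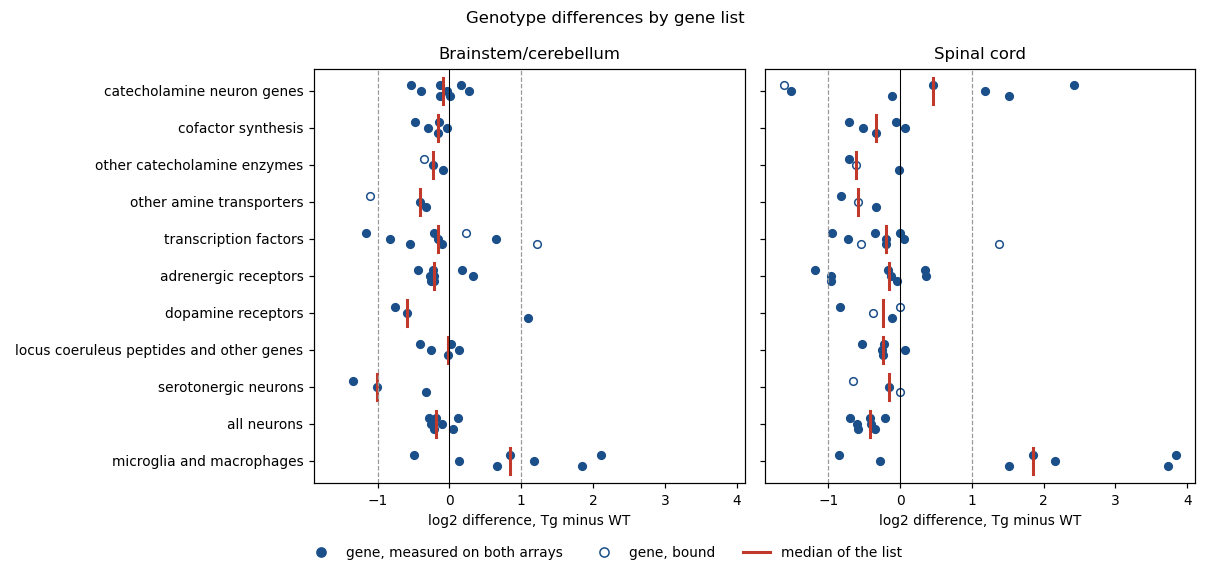
Log2 difference, transgenic minus wild type (x axis), of each measured gene by list (rows) in brainstem/cerebellum (left) and spinal cord (right); filled points were measured on both arrays, open points are bounds, red bars are medians and dashed lines mark 2-fold. The microglia and macrophage list has medians of 0.85 and 1.86, and the list of genes of all neurons lies at -0.19 and -0.41.

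The tissues were compared within each genotype as well. In transgenic mice 4 of the 8 genes were at least 2-fold lower in spinal cord than in brainstem/cerebellum and 1, Gch1, was higher. Among all genes 6.99% were lower and 11.1% higher, 18.1% in all. In wild-type mice 5 of 8 were lower and 0 higher, beside 4.86% lower and 7.5% higher of all genes, 12.4% in all. The medians of the 8 genes were -1.11 in transgenic and -1.71 in wild-type mice, and those of all genes were -0.01 and 0.00. Of all calls 61.3% were higher in transgenic mice, against 32.7% with spike-in scaling, and 60.7% in wild-type mice, against 49.0% with median scaling. The wild-type comparison crosses slides and the transgenic one does not.

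Dbh and Slc6a2 were far lower in spinal cord, and because Slc6a2 and the transgenic Dbh value are bounds, their gaps have no order. In transgenic mice the brighter Dbh probe was not well above background in spinal cord and gave 1369 in brainstem/cerebellum. This makes spinal cord at least 117-fold lower, a bounded difference of -6.87 that was -4.54 with normexp background correction. The dimmer Dbh probe gave bounds of -3.22 in transgenic and -4.12 in wild-type mice. In wild-type mice the signals of the brighter Dbh probe were 53.2 in spinal cord and 1355 in brainstem/cerebellum. The difference was -5.29, or 39.2-fold lower, and -3.94 with normexp. Slc6a2 was at least 15.3-fold lower in spinal cord of transgenic and at least 30.7-fold lower in that of wild-type mice. These bounded differences of -3.93 in transgenic and -4.94 in wild-type mice were -1.90 and -2.44 with normexp, so the size of the bounds depends on the background correction.

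Slc18a2 differed by -3.69 between spinal cord and brainstem/cerebellum in transgenic mice, or 12.9-fold lower, which was -2.54 with normexp, and by -2.57 in wild-type mice, or 5.92-fold lower. At its brighter probe Th differed by -2.20 in transgenic and -2.09 in wild-type mice, 4.6-fold and 4.25-fold lower in spinal cord, close to each other. The dimmer Th probe gave a bound of -2.64 in transgenic mice and -3.46 in wild-type mice. Th, unlike Dbh and Slc6a2, thus gave a signal in spinal cord on both arrays, at its brighter probe.

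Ddc, Gch1 and Phox2a had unlike tissue differences in the genotypes, which was not tested. Ddc stood at -0.02 in transgenic and -1.34 in wild-type mice, and its dimmer probe at -0.55 in transgenic and -2.18 in wild-type mice. Gch1 stood at 1.43 in transgenic and -0.72 in wild-type mice, and Phox2a at 0.51 in transgenic and -0.84 in wild-type mice. For Gch1 and Phox2a the sign turned between genotypes, and it did so under each of the 7 ways of processing. These ways are not independent: for both genes the mean of probes repeats the main value, and the authors' values nearly repeat quantile normalization. Maoa was at 0.38 in transgenic and -0.21 in wild-type mice, the smallest range of the 8 over the 4 arrays.

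**Figure D5:**
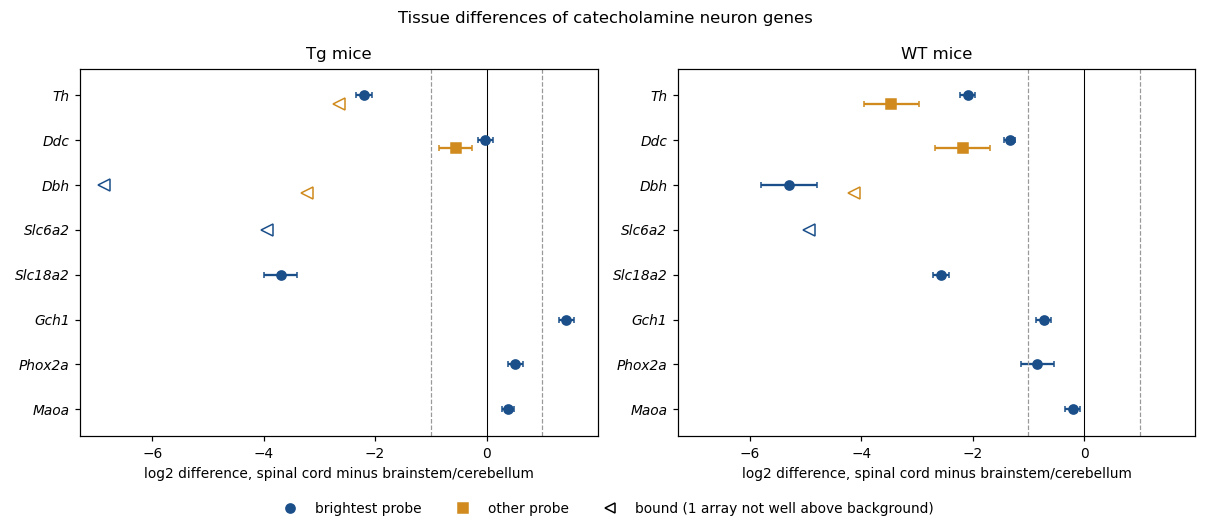
Log2 difference, spinal cord minus brainstem/cerebellum, of each gene in transgenic (left) and wild-type (right) mice; bars are ± 1 technical SD of 2 spots, open triangles are bounds and dashed lines mark 2-fold. Dbh, Slc6a2, Slc18a2 and Th lie at -2.09 or lower in both genotypes, while Gch1 stands at 1.43 in transgenic and -0.72 in wild-type mice.

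Genes whose pattern over the 4 arrays was most like the mean of Th, Dbh, Slc6a2 and Slc18a2 were sought among 16117 other genes detected in brainstem/cerebellum of both genotypes. Likeness was the Euclidean distance between profiles that were each centred on their own mean, over 4 arrays. The nearest were En2 at a distance of 0.23, Sycp1 at 0.27, Lmx1a at 0.33 and Sln at 0.36. Clic6, Rd3l, Gdf10 and Gm30313 followed at 0.45 to 0.57. Sycp1, Lmx1a, Sln, Rd3l and Gm30313 were not well above background in transgenic spinal cord, nor were Lmx1a, Rd3l and Gm30313 in wild-type spinal cord, and the mean profile itself holds Slc6a2 and Dbh values at background. The distances of these genes and the order of the 8 therefore rest in part on background signals, while En2, Clic6 and Gdf10 were above background on all 4 arrays. The mean profile stood at 2.17 in transgenic and 2.41 in wild-type brainstem/cerebellum and at -2.70 in transgenic and -1.88 in wild-type spinal cord, and with 4 points many unrelated genes can lie close to it.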

How the data were processed

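Labelled RNA (Cy3) of 4 samples was hybridised to 1 Agilent array each, per the labels. The deposited scanner files hold a linear intensity per spot made with Agilent Feature Extraction, version 10.7.1.1 per the file headers and 9.5.1.1 per the submitters' processing notes. Per the file headers, signals were background-subtracted and detrended within arrays, and nothing was scaled between arrays. The authors' series table also holds intensity values. The sources used here do not say how these were normalized. All 4 columns have a median of 30.4 and follow a quantile normalization with a correlation of 0.99999.

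Control and outlier-flagged spots were left out, spots of a probe averaged, and log2 signals expressed against that array's 75th percentile (463, 445, 414 and 686 for transgenic and wild-type brainstem/cerebellum and transgenic and wild-type spinal cord). Probes were named by RefSeq accession, symbol or synonym (GRCm38.p6), and 12867 of 56605 stayed unnamed. The probe with the highest mean stood for a gene. Calls were at 2-fold. Against an array where a probe was not well above background, the difference is a bound, taken to whichever is higher there, the level of the dim probe or the lowest signal well above background. With 1 array a group, no test was possible. Calls were checked on simulated data. Members and lists were chosen with earlier results of these data known; named genes are the 8 genes, at most 4 members of each list with the largest difference in a comparison, and the 8 nearest patterns. Tools were Python 3.11.15, R 4.3.3 and limma 3.58.1. Alternatives were scaling on the median or on 7 spike-in probes, quantile normalization, normexp with an offset of 50, the authors' values, the mean of probes, no filter on dim probes, and 1.5-fold and 3-fold thresholds. Some members of the wider gene lists are not reported here and were left out of the lists' counts and medians.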

Additional observations from a re-analysis of the deposited data

Results flagged for a closer look

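Ddc was singled out because its genotype difference had opposite signs in the tissues, each larger than 1 technical SD, and was past 2-fold in spinal cord. It stood at 1.18 in spinal cord (1.1791 before rounding) and at -0.14 in brainstem/cerebellum (-0.1364 before rounding), transgenic minus wild type. The brainstem/cerebellum value was barely past its technical SD of 0.13. There 36.4% of all genes measured on both arrays were as far below 0 or further. Over 7 ways of processing it lay between -0.33 and -0.06, and with quantile normalization at -0.08, so the flag depends on the processing. With 1 array in each group, the difference between the tissues was not tested. Maoa and Th also had opposite signs, without a value past 2-fold. Maoa stood at 0.45 in spinal cord and -0.13 in brainstem/cerebellum, and Th at -0.11 in spinal cord and 0.01 in brainstem/cerebellum, less than 1 technical SD. The dimmer Ddc probe showed the same signs, at 1.27 in spinal cord and -0.35 in brainstem/cerebellum.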

How the results depend on the processing

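No paired analysis was possible because each group holds 1 array, and for the same reason no array could be left out. In spinal cord, the 3 higher genes became 1 and the 2 lower genes became 1 at a 3-fold threshold, and the lower genes became 0 with normexp background correction. The 1 gene higher in spinal cord than in brainstem/cerebellum of transgenic mice became 0 at 3-fold. Of the differences between tissues' genotype differences, the 3 genes at least 1 above became 1 with spike-in scaling, and the 1 gene at least 1 below became 0 with median scaling and with normexp. The share of all genes at that size was not computed, so these counts cannot be set against a rate. No other count of members moved by over 1.5 times, and no difference past 2-fold changed sign. Of 213 recomputed single differences 39 moved by more than 1 technical SD. Many of the others could not move. Without a filter on dim probes, the values given equal the main ones by construction. The mean of probes repeats the main value for genes with 1 probe and for Slc6a2. The authors' values nearly repeat quantile normalization. The share that moved is therefore no measure of robustness. Over all genes the median was -0.25 with median scaling, against -0.06, in brainstem/cerebellum, and -0.41 with spike-in scaling, against -0.05, in spinal cord, so small differences hold relative to the 75th percentile. Among all genes in brainstem/cerebellum, the 630 higher ones became 216 with normexp, and the 97 lower ones 175 with median scaling, 152 with quantile normalization, 150 with the authors' values and 14 with normexp. In spinal cord the 1720 higher ones became 1141 with spike-in scaling and 981 with normexp, and the 1201 lower ones 2797 and 493. Between tissues of transgenic mice the 1934 higher ones became 1149 with spike-in scaling and 1083 with normexp, and the 1221 lower ones 2368 and 693. In wild-type mice the 1321 higher ones became 513 and the 856 lower ones 437 with normexp. In these 4 comparisons, the counts of higher and lower genes were 1326 and 464, 3057 and 3206, 3501 and 2691, and 2971 and 2060 at 1.5-fold, and 258 and 31, 914 and 339, 819 and 518, and 420 and 400 at 3-fold. The cause of these changes was not tested, apart from the thresholds' own construction. Signals near background limit Dbh, Slc6a2 and the dim Th probe in spinal cord.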

Other observations

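Mast cells also use Slc18a2, and a list of their genes was looked up after the values above were seen. Of 7 genes, 4 were at least 2-fold higher on the transgenic spinal cord array and 0 lower. The protease genes Cma1, Cpa3 and Mcpt4 were above background on that array alone of the 4, with signals of 151, 67.5 and 63.9, and Tpsb2 stood at 1.97. Fcer1a was not well above background on any array. Slc18a2 was lower on the same array, and whether mast cells add to its signal was not tested.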
